A study of Mus musculus with 28 samples.

Results

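The passage from morula to blastocyst was read in 7 single het embryos of the CD1 strain, 3 morulae against 4 blastocysts, out of 27 embryos with values in the series. The het morulae were numbers 1, 5 and 7 and the het blastocysts were numbers 3, 5, 6 and 8, chosen by the genotype in the sample titles, and 14332 gene rows present in the tables of both stages were compared. The tables are named for embryonic days E2.5 and E3.5. The labels give the genotype only as het, and the series title is about CTCF, the zinc finger protein that halts cohesin loops at insulators. The allele, the parents and what Cre or deletion the het embryos carry are not given in the labels. WT_flfl blastocysts (n = 3) served as a second blastocyst group, and MZKO morulae (n = 6) and MZ_KO blastocysts (n = 3) gave the same step in embryos with little Ctcf. Morulae titled del are given beside these, and blastocysts titled M_KO entered only the fit that compares het with knockout embryos. All were single whole embryos of CD1, read from polyadenylated RNA after amplification with a low-input kit. Read totals lay between 14039645 and 27883060 in the 7 het embryos.

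At the morula stage the blastomeres have compacted and begun to polarise. Outer cells become trophectoderm, an epithelium that seals itself with junctions and pumps sodium and water inwards to open the cavity. Inner cells form the inner cell mass, which then separates into epiblast and primitive endoderm. The early embryo feeds mainly on pyruvate and lactate, and use of glucose rises as the blastocyst forms. The series title places a metabolic switch at this step.

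Stage could not be separated from other differences between the tables. All morulae came from one sequencing batch and all blastocysts from the other, the tables were scaled apart by the authors, and the het morulae carry the title prefix N2 and the het blastocysts N89. Stage, batch and prefix cannot be told apart, and no p-value is given between the stages. Exact permutation of 4 against 3 embryos could in any case not go below p = 0.0571 two-sided. A gene was instead called higher or lower, or said to rise or fall, when the group means of log2(CPM + 1), where CPM is counts per 1000000 reads, differed by at least 2 (about 4-fold), no morula overlapped any blastocyst, and the higher group mean reached 10 CPM. An SE of a difference covers only the spread between these embryos. The RNA is that of whole embryos, so that a change in the number of cells of a type and a change in RNA per cell cannot be told apart.

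Morula het 1 and blastocyst het 6 stood apart. Morula het 1 had reads in 16329 genes, against 14648 and 14040 in het 5 and 7. Its Spearman correlation with the other morulae was 0.756 and 0.703, against 0.891 between het 5 and het 7, as a description over genes. Blastocyst het 6 did not stand apart in this way, at 0.896 to 0.935 against 0.903 to 0.929 among the other blastocysts, but in the markers below. Haemoglobin transcripts took 1.52% of reads in morula het 1 and 3.10% in blastocyst het 6, 1.137% in blastocyst het 3 and at most 0.0834% in the other four. Markers of blood, oviduct and fibroblasts were all highest in the same embryos. Summed blood markers held 1.63%, 0.0466% and 0.0722% of the morulae and 1.17%, 0.0928%, 3.21% and 0.00636% of the blastocysts. Oviduct markers held 0.154% of morula het 1 and 0.0641% of blastocyst het 6, and at most 0.0266% of any other embryo. Fibroblast and smooth muscle markers held 0.0579% and 0.0397% of the same embryos and at most 0.0114% elsewhere. Each of the 8 blood, 5 oviduct and 5 fibroblast markers that were measured peaked in morula het 1 among morulae and in blastocyst het 6 among blastocysts, and 0 of them was called. Their part in any result was not tested, and for the genes named below, calls that ended without one or both are given with them. The Y-linked genes Ddx3y and Eif2s3y reached 10 CPM in 0 of 3 het morulae and 3 of 4 het blastocysts, so sex also differed between the groups.

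In these embryos 704 of 9648 measured genes (7.30%) were higher in blastocysts and 321 (3.33%) were lower. A gene was measured when a group mean reached 10 CPM. Genes of any size of change without overlap numbered 2170 higher (22.5%) and 1288 lower (13.3%). The 704 genes held 1.098% to 1.49% of reads in morulae and 7.88% to 9.42% in blastocysts, and the 321 genes went from 6.89% to 8.21% down to 0.870% to 1.19%. By rank within each embryo, with group medians at least 20 percentile points apart, 900 genes were higher and 787 lower, so that the share of higher calls was 53.3% instead of 68.7%. Under upper-quartile scaling that share was 60.9%. Without both libraries that stand apart 985 genes were higher and 410 lower. Of the main calls 604 and 292 were among these. Groups without overlap cannot change direction when embryos are left out. With WT_flfl in place of het blastocysts 719 were higher and 388 lower, of which 585 and 256 were main calls. The median difference over all measured genes was 0.17 (log2), which is the value to set beside each list below. Counts of called list members are to be set beside 7.30% and 3.33%, and counts without overlap beside 22.5% and 13.3%. The lists were written with earlier results of these data known.

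**Figure D1:**
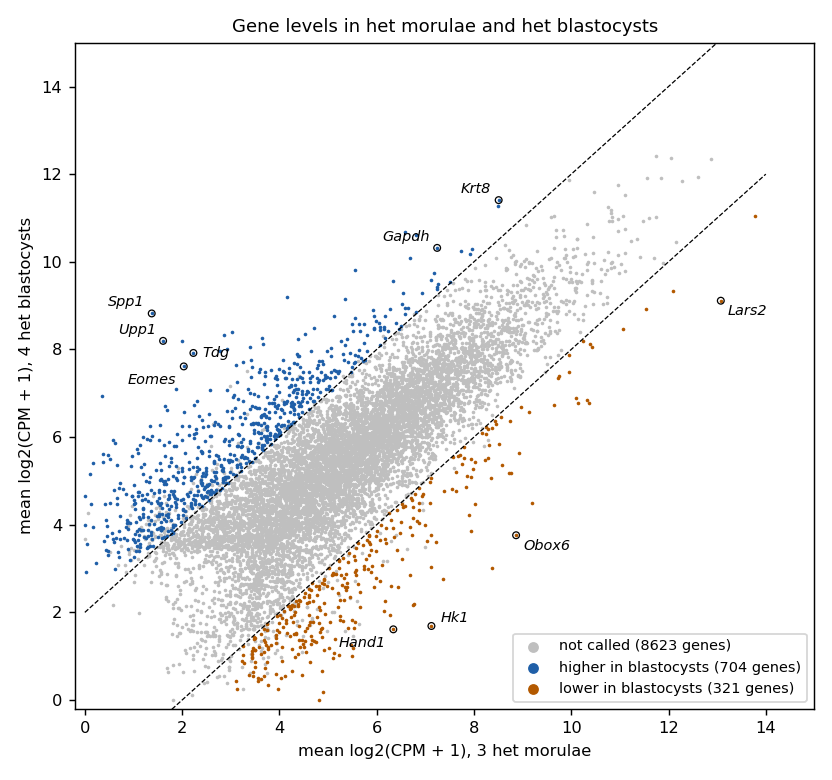
Mean log2(CPM + 1) of each measured gene in the 3 het morulae (horizontal axis) against the 4 het blastocysts (vertical axis). Blue points are the 704 genes called higher and orange points the 321 called lower in blastocysts, grey points were not called, dashed lines mark a difference of 2 either way, and the ringed genes are described in the text.

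Promoters are shown for the pair of largest rises and the pair of largest falls among the named genes that had an entry in the RefSeq promoter table (GRCm38.p6), since these genes carry the steepest parts of the step. Each run is 300 bases, from 250 before to 50 after the start, 5′ to 3′ on the gene's strand. Where a gene had several entries, the one nearest to the annotated 5′ end was taken. Capitals mark a match to GCCNNNGGC, the core of AP-2 factors, or to GGAATG, the core of TEAD factors, on either strand. Both families act in trophectoderm.
Spp1 (chr5:104434861-104435160, plus strand): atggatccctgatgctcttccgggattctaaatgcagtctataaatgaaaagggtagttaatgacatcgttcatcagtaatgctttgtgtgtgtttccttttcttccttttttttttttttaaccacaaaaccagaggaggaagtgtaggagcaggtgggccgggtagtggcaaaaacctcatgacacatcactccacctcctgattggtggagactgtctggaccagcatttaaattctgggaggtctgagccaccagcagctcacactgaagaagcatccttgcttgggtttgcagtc
Upp1 (chr11:9117853-9118152, plus strand): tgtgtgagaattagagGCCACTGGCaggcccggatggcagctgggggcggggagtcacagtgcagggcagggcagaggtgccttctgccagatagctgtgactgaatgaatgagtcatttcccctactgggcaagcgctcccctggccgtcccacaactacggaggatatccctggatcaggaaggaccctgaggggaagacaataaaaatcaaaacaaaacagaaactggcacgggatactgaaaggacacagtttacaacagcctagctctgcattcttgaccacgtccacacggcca
Hk1 (chr10:62379859-62380158, minus strand): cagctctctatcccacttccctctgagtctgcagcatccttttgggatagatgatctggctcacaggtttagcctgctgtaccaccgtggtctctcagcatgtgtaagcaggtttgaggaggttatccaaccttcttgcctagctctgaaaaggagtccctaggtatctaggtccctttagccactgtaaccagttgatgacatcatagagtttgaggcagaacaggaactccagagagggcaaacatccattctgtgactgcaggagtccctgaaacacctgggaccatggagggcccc
Tdrd9 (chr12:111971309-111971608, plus strand): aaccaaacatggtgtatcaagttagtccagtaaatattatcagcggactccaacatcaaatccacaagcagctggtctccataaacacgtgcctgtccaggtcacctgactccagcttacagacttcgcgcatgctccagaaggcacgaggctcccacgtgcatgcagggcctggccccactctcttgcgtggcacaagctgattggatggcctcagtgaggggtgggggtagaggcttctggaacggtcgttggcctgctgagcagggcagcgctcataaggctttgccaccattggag
The AP-2 core occurred 1 time, in the Upp1 promoter, and the TEAD core 0 times in these windows, and no matches overlapped. Among 7400 measured genes with an entry, 24.9% held the AP-2 core and 11.6% the TEAD core. Among 549 higher genes the shares were 28.05% and 11.7%, and among 220 lower genes 25.9% and 12.3%. These shares lay within a few points of each other, and a match is a description of letters, not of binding.

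In what follows the values of single embryos are CPM in the order het 1, 5 and 7 for morulae and het 3, 5, 6 and 8 for blastocysts. Differences are blastocyst minus morula in mean log2(CPM + 1), with SE.

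Among the largest rises, Spp1, which encodes the secreted integrin ligand osteopontin, stood at 16.5, 0 and 0 in morulae and at 390, 505, 391 and 539 in blastocysts (7.45, SE 1.38). Upp1, uridine phosphorylase, which splits uridine into uracil and ribose phosphate, went from 3.16, 5.82 and 0 to 270, 297, 258 and 352 (6.59, SE 0.84). Slc37a2, a sugar-phosphate exchanger of the endoplasmic reticulum, stood at 0.581, 0 and 0.334 and then at 123, 148, 140 and 83.6 (6.57, SE 0.27). The morula reads of Spp1 all came from het 1, whereas Slc37a2 was near 0 in each morula. In rank within the embryo, Spp1 moved from the 1.51 to the 96.3 percentile of measured genes and Upp1 from 3.11 to 92.9 (group medians). Slc15a2, a proton-coupled peptide transporter, stood at 36.2, 0.336 and 0.278 in morulae and between 130 and 496 in blastocysts (6.199, SE 1.66). Slc44a1, a choline transporter, went from between 0.951 and 12.4 to between 187 and 316 (5.20, SE 0.92). Glrx, the thiol reductase glutaredoxin, stood at 10.1, 10.9 and 1.84 and at 317, 363, 315 and 296 (5.48, SE 0.68). Vgll3, a cofactor of TEAD factors, stood at no more than 1.097 in any morula and between 31.3 and 91.7 in blastocysts (5.35, SE 0.46). Wnt7b, a Wnt ligand, stood at up to 9.13 and then between 124 and 162 (5.22, SE 0.99), and Dpy19l1, a C-mannosyltransferase family member, rose from at most 1.097 to between 38.2 and 65.2 (5.23, SE 0.38). Absence of overlap is part of the rule by which these genes were picked. With differences this far over the threshold, no call ended when 1 het embryo was left out.

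Among the largest falls, Hk1, hexokinase 1, which commits glucose to the cell as glucose 6-phosphate, fell from 101, 186 and 142 to 0.834, 3.33, 7.71 and 0.563 (−5.44, SE 0.63). Obox6, an oocyte-specific homeobox gene of preimplantation embryos, fell from 247, 725 and 564 to 19.9, 11.7, 4.85 and 20.7 (−5.11, SE 0.64). Tdrd9, a helicase of the piRNA pathway, fell from 20.2, 49.9 and 23.6 to 0.695, 0, 0 and 0 (−4.71, SE 0.43). The rank of Hk1 went from the 83.3 to the 4.08 percentile and that of Obox6 from 96.9 to 24.2. Hand1, a factor of later trophoblast giant cells, fell from 34.6, 135 and 109 to between 0.834 and 3.87 (−4.73, SE 0.67). Lars2, the mitochondrial leucyl-tRNA synthetase, fell from between 6599.6 and 10479 to between 356 and 1183 (−3.96, SE 0.43). Its transcript holds a repeat related to ribosomal RNA, so its reads are uncertain. The rest of the 12 steepest falls included genes best known from other tissues. They were the renin gene Ren1 (−4.22), the glutamate receptor subunit Grin1 (−4.22), the zinc finger gene Zscan5b (−4.21), the carbonyl reductase Cbr2 (−4.07), the muscle gene Ttn (−3.90), the adhesion gene Tcam1 (−3.89) and the Fc receptor Fcgr3 (−3.85). Their morula levels lay between 9.48 and 336 CPM and their blastocyst levels between 0 and 18.4 CPM.

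Trophectoderm genes were the list with the most calls. Of 30 genes 27 were in both tables and measured, 15 were higher and 1, Hand1, was lower, with a median difference of 2.15. Cdx2, the homeodomain factor that specifies trophectoderm, stood at 20.1, 63.8 and 76.0 and then at 198, 259, 246 and 233 (2.31, SE 0.59). Gata3 went from 30.5, 30.7 and 121 to 294, 511, 453 and 317 (2.95, SE 0.68). Eomes, needed for trophoblast development, went from 0.968, 6.21 and 3.84 to 96.5, 315, 319 and 148 (5.58, SE 0.70). Every blastocyst lay above every morula for these factors, but the Cdx2 call ended without morula het 1 (1.73). Elf3 stood at 329, 74.4 and 556 and then between 836 and 1748 (2.26, SE 0.90), a call that ended without morula het 5 (1.43). The paired keratins of simple epithelia rose together: Krt8 from 493, 230 and 421 to 2049, 3244, 2514 and 3252 (2.90, SE 0.37), Krt18 from 542, 195 and 436 to between 1817 and 3142 (2.79, SE 0.48). Fabp3, a fatty acid-binding protein, stood at 19.9, 90.4 and 451 and then between 1119 and 2412 (4.11, SE 1.2998). The tetraspanin Tspan8 stood at 59.4, 4.70 and 0.556 and then at 152, 486, 451 and 372 (5.37, SE 1.59). Fgfr2, the trophectoderm receptor for FGF4, rose from between 36.7 and 55.3 to between 172 and 281 (2.15, SE 0.23). Not all trophectoderm factors were called. Tead4, which acts upstream of Cdx2, had overlapping groups (67.2 to 168 against 87.0 to 125), as did Tfap2c (128 to 226 against 85.7 to 161), and Klf5 was apart but not called (1.62), except without morula het 7 (2.04). Krt19 was at 326, 39.5 and 4.17 in morulae and at 11.8, 5.11, 74.4 and 8.84 in blastocysts, highest in the libraries that stand apart. Krt7 was 79.4 in morula het 1 and at most 5.32 in the others, against 15.5 to 65.9 in blastocysts, and was called only without morula het 1 (2.65). The summed list held 0.39994% to 0.541% of reads in morulae and 1.1045% to 1.86% in blastocysts.

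Pluripotency genes were called in part. Of 28 epiblast and inner cell mass genes 24 were measured, 3 were higher and 0 lower, against 7.30% and 3.33% over all measured genes. Without overlap 7 were higher and 4 lower, against 22.5% and 13.3% over all measured genes. The median was 0.01, or −0.37 without both libraries that stand apart. The higher ones were Spp1, the ligand Fgf4 (1.42, 13.7 and 1.61 against 39.3, 16.2, 40.7 and 37.0; 2.84, SE 0.90), and the Nodal co-receptor Tdgf1 (68.2, 49.4 and 106 against 360.1, 327, 335 and 216; 2.08, SE 0.36). The Tdgf1 call ended without morula het 5 (1.83). Pou5f1, the core pluripotency factor, was lower without overlap but by less than the threshold, at 493, 629.6 and 1020 against 352, 263, 238 and 356 (−1.19, SE 0.34). Klf4 was apart and lower (−1.14, SE 0.13), and so was Esrrb, which passed the size rule only without morula het 1 (−2.06). Nanog, the factor of the epiblast, had 20, 41.2 and 126 against 133, 93.4, 167 and 140, which overlapped. It was called only without morula het 7 (2.15). Sox2 stayed under the minimum of 10 CPM in both groups, at 0.890 to 1.23 in morulae and 6.72 to 8.52 in blastocysts. Dppa3, a maternal protein that shields DNA methylation, overlapped, with 1292 to 3646 against 1122 to 1666.

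**Figure D2:**
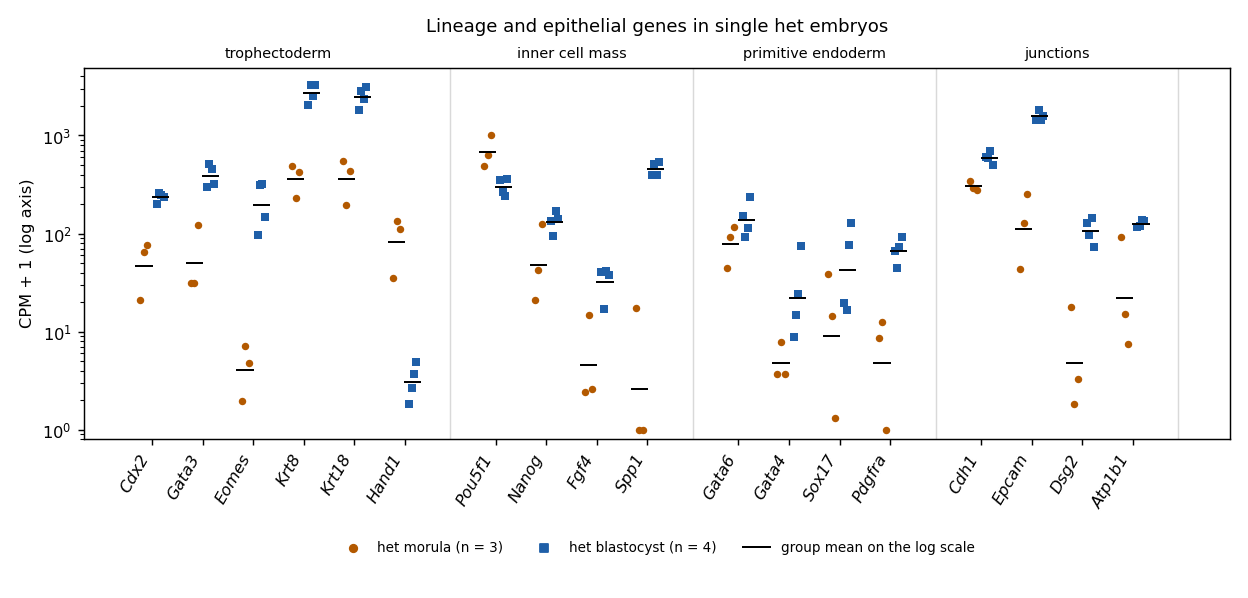
Level of 18 lineage and epithelial genes in each het morula (orange circles, n = 3) and het blastocyst (blue squares, n = 4) as CPM + 1 on a log axis, with black bars for the group mean on the log scale. Krt8 blastocysts sit between 2049 and 3252 CPM, above all morulae, while Nanog and Gata6 overlap and Hand1 lies at or under 3.87 CPM in every blastocyst.

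Primitive endoderm genes were called in part and differed between blastocysts. Of 20 genes 13 were measured, 5 were higher and 0 lower (median 2.18). Pdgfra, the receptor that marks this lineage, went from 7.55, 11.5 and 0 to 65.5, 43.7, 72.7 and 91.2 (3.82, SE 1.16). The laminin chain Lamc1 of the basement membrane went from 31.9, 7.11 and 13.7 to 86.2, 78.8, 113 and 157 (2.75, SE 0.63). Gata4 stood at 2.71, 6.88 and 2.73 and then at 7.85, 13.7, 23.4 and 73.9 (2.21, SE 0.75). The Gata4 call rested on blastocyst het 8, without which the difference was 1.62, and it also ended without both libraries that stand apart (1.98). The calls of Dab2 (2.18), an endocytic adaptor, and the basement membrane gene Nid2 (2.09) also ended without both (1.91 and 1.82). Each ended without morula het 1 alone as well (1.97 and 1.88). The Dab2 call further ended without morula het 5 (1.95), and the Nid2 call without blastocyst het 3 (1.97). Sox17 had 37.7, 13.5 and 0.334 against 18.6, 15.8, 76.3 and 127, and Gata6 had 44.1, 92.1 and 116 against 150.1, 90.8, 112 and 235, so both overlapped. Sox17 and the collagen Col4a1 were called without morula het 1 (3.27 and 2.04). Blastocyst het 8 held the highest value of 10 of the 13 measured genes, against 2 in het 5, 1 in het 3 and 0 in het 6. The summed list was 0.0485% to 0.0671% in morulae and 0.149%, 0.156%, 0.205% and 0.240% in blastocysts.

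Genes of the epithelium and the cavity rose in part. Of 40 genes of cavitation, sodium pump, aquaporins and junctions 36 were measured, 6 were higher and 0 lower (median 0.92). Without overlap 17 were higher and 3 lower, against 22.5% and 13.3% over all measured genes. Dsg2, a desmosomal cadherin, went from 16.8, 0.839 and 2.28 to 127, 96.2, 143 and 72.6 (4.49, SE 1.01). Epcam, an epithelial adhesion protein, went from 42.5, 127 and 252 to 1428, 1830.5, 1443 and 1594 (3.81, SE 0.74). The polarity kinase Prkci rose (2.53, SE 0.29) together with its partners Pard6b (2.36) and Pard3 (2.19), though the Pard6b call ended without morula het 1 (1.77) and without both libraries that stand apart (1.76). Atp1b1, the beta subunit of the sodium pump, had 91.7, 14.3 and 6.57 against 115, 118, 136 and 132 (2.51, SE 1.08), a call that ended without morula het 7 (1.74). Aqp3, a water and glycerol channel, was apart and lower by a narrow margin, at 346 to 446 against 190 to 343 (−0.49). With WT_flfl in place of het blastocysts its difference was 0.11. E-cadherin, Cdh1, was already at 274 to 344 in morulae and at 502 to 688 in blastocysts (0.97, SE 0.14). The Hippo pathway keeps TEAD factors silent in inner cells, and its list here also holds the TEAD genes themselves. Among 17 measured Hippo genes of 20, 1 was higher and 0 lower (median −0.15). It was Tead2, from 10.3, 3.86 and 15.6 to between 38.9 and 47.8 (2.23, SE 0.53), and the call ended without morula het 5 (1.73).

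FGF signalling, which divides epiblast from primitive endoderm, had calls at its ligand, some receptors and some targets. Of 26 genes 18 were measured, 6 were higher and 1 lower (median 1.22). Besides Fgf4 and Fgfr2 the higher genes included the feedback phosphatases Dusp6 (24.5, 5.71 and 0 against 39.3, 43.6, 88.9 and 80.7; 3.44, SE 1.39) and Dusp4 (0, 0 and 8.85 against 15.6, 11.9, 27.8 and 81.8; 3.64, SE 1.25) and the feedback inhibitor Spry1 (2.12). The Spry1 call ended without morula het 1 (1.79), blastocyst het 8 (1.90) or both libraries that stand apart (1.73). The receptor Fgfr3 fell from 20.8, 37.5 and 20.8 to 1.60, 2.45, 3.73 and 0 (−3.37, SE 0.56). Fgfr2 and Fgfr3 thus went opposite ways, with Fgfr2 higher and Fgfr3 lower in every blastocyst than in any morula. The other measured receptors, Fgfr1 and Fgfr4, were higher in mean in blastocysts, like Fgfr2, but were not called.

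The hexokinases moved in opposite directions. While Hk1 fell as given above, Hk2, the other main hexokinase, rose from 24.7, 16.1 and 33.3 to 264, 172, 135 and 110.2 (2.71, SE 0.40), and both calls held whichever embryo was left out. On the rank scale Hk2 went from the 36.9 to the 84.2 percentile. Of 18 glycolysis genes 16 were measured, 3 were higher and 2 lower, with a median of 1.21. Gapdh, the triose phosphate dehydrogenase, had 397, 113 and 75.8 against 1125, 1518, 1104 and 1402 (3.07, SE 0.73). Pkm, pyruvate kinase, had 375, 118 and 57.9 against 824, 644, 697 and 926 (2.47, SE 0.79), a call that ended without morula het 7 (1.86). Gpi1, which turns glucose 6-phosphate into fructose 6-phosphate, was apart at 146, 37.7 and 60.9 against 238 to 325 (1.91, SE 0.57). In each of these the morula nearest to the blastocysts was het 1, which held the highest value of 12 of the 16 measured glycolysis genes among morulae. Without both libraries that stand apart 6 were higher and 3 lower. Eno2, the neuronal enolase, fell (−2.80, SE 1.07) from 3.48, 40.7 and 4.90 to between 0 and 1.68, a call that ended without morula het 5 (−1.79). The lactate dehydrogenase subunit Ldha was not resolved, with 375, 52.7 and 10.2 against 38.6, 31.2, 109.65 and 58.3. Ldhb had 144, 41.4 and 16.1 against 8.69, 4.61, 34.2 and 0 and was called lower without blastocyst het 6 (−3.64) or without morula het 7 (−3.57).

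Of 18 transporters of glucose, lactate and amino acids 11 were measured, 1 was higher and 1 lower (median 1.17). Slc16a1, the monocarboxylate transporter MCT1 for lactate and pyruvate, rose from 38.2, 44.6 and 46.7 to 184, 262, 325 and 214 (2.46, SE 0.20). The glucose transporter Slc2a3 was apart but under the size threshold, at 125 to 193 against 378 to 607 (1.76, SE 0.24). Slc2a1, GLUT1, had 29.4, 5.43 and 36.8 against 104, 52.4, 26.7 and 79.2. Blastocyst het 6 was its low value, and the gene was called higher without both libraries that stand apart (2.30). The amino acid transporter Slc38a2 was lower (−2.08, SE 1.06), but 61.8 of morula het 1 stood against 7.16 and 8.90 in the others, and the call ended without it (−1.15) and without blastocyst het 5 (−1.58). Slc16a3 and Pdk1, the kinase that restrains pyruvate dehydrogenase, stayed under 10 CPM in both group means.

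**Figure D3:**
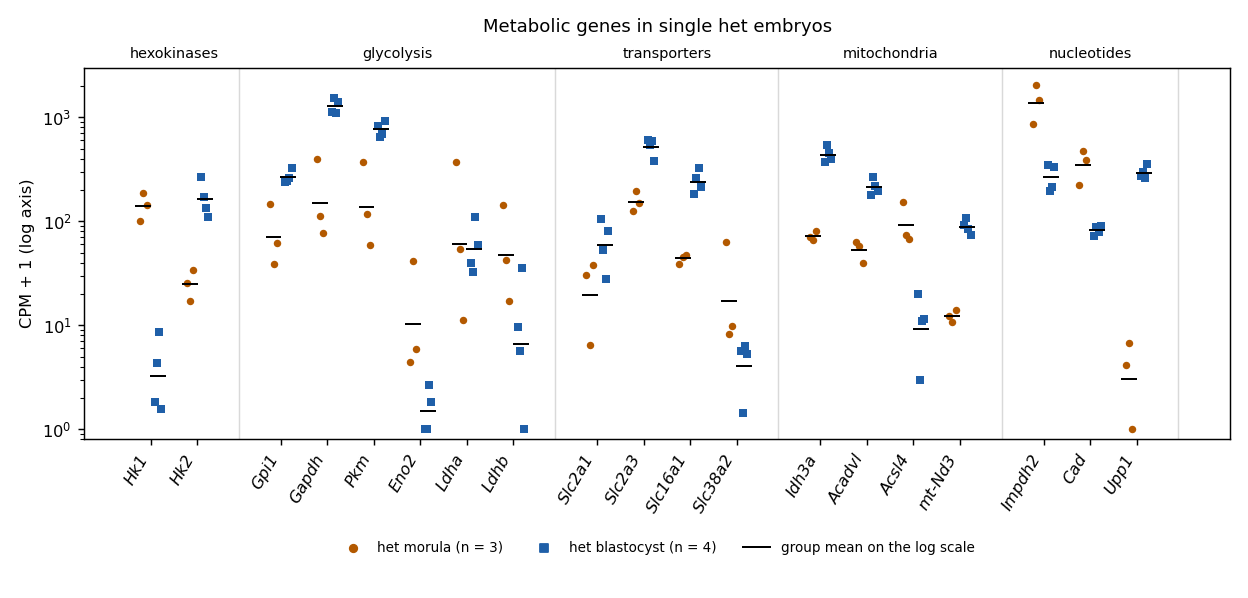
Level of 19 metabolic genes in each het morula (orange circles, n = 3) and het blastocyst (blue squares, n = 4) as CPM + 1 on a log axis, with black bars for the group mean on the log scale. Hk1 and Hk2 change in opposite directions without overlap, whereas Ldha, with 10.2 to 375 CPM in morulae and 31.2 to 109.65 CPM in blastocysts, overlaps.

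Lists of mitochondrial genes held few calls. Of 28 measured genes of the tricarboxylic acid cycle and pyruvate entry 1 was higher, and 14 were higher against 2 lower without overlap (median 0.73). The call was Idh3a, the catalytic subunit of NAD-dependent isocitrate dehydrogenase, from 69.5, 65.0 and 78.9 to 370.2, 541, 453 and 399 (2.60, SE 0.14). Of 75 nuclear-encoded oxidative phosphorylation genes 0 were called, and 20 were higher and 0 lower without overlap (median 0.27), against 22.5% and 13.3% over all measured genes. Of the 15 mitochondrially encoded genes 1 was called, while 8 were apart and lower (median −0.55, and −0.15 with WT_flfl in place of het blastocysts). The call was mt-Nd3 of complex I, which went against its list, from 11.2, 9.68 and 13.1 to 91.5, 107, 83.5 and 72.5 (2.86, SE 0.16). Of 23 fatty acid oxidation genes 1 was higher and 1 lower (median 0.68). They were Acadvl, the very long chain dehydrogenase (38.5 to 62.9 against 177 to 267; 2.02, SE 0.25), whose call ended without morula het 7 (1.81) or blastocyst het 5 (1.91), and Acsl4, which activates arachidonic acid (154, 73.3 and 66.6 against 18.8, 1.95, 10.01 and 10.4; −3.31, SE 0.70). Of 21 cholesterol synthesis genes measured 1, mevalonate kinase (Mvk, 2.29), was higher (median 0.20), and the call ended without morula het 7 (1.84) or blastocyst het 8 (1.98). Blastocyst het 8 was highest for 17 of these 21 genes.

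Genes of nucleotide synthesis held 2 calls and those of ribosomes 0, against 7.30% called higher and 3.33% called lower over all measured genes. Of 29 measured nucleotide, serine and one-carbon genes 0 were higher and 2 lower, and 10 were apart and lower against 5 higher (median −0.26). Impdh2, which makes guanine nucleotides, fell from 856, 2039.5 and 1460.5 to 351, 196, 214 and 334 (−2.36, SE 0.42). Cad, the first enzymes of pyrimidine synthesis, fell from 223, 476 and 386 to between 71.0 and 89.3 (−2.08, SE 0.33), with the call ending without morula het 5 (−1.85) or het 7 (difference −1.997). Of 54 ribosome biogenesis genes 0 were called, with 16 apart and lower and 4 higher (median −0.49). All 78 cytosolic ribosomal protein genes were measured and 0 were called, while 47 were apart and lower and 0 higher (median −0.90). Over all measured genes 13.3% were apart and lower and 22.5% apart and higher. Their summed share was 3.47%, 5.87% and 7.04% in morulae and 2.72%, 2.81%, 2.55% and 3.32% in blastocysts, so that morula het 1 lay nearest to the blastocysts. Among blastocysts het 8 was highest for 75 of the 78 genes.

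Of 45 measured replication and G1/S genes 3 were higher, close to the 7.30% over all genes, and 18 were apart and higher against 0 lower (median 0.51). E2f1, the factor that drives S phase genes, stood at 5.94, 0.392 and 4.06 and then at 29.3, 53.7, 38.7 and 40.4 (3.47, SE 0.73). Uhrf1, which recruits maintenance methylation to replicated DNA, went from 15.2, 13.2 and 11.4 to 209, 174, 154 and 202 (3.70, SE 0.15). The clamp loader subunit Rfc5 was the last (2.17, SE 0.29), and its call ended without morula het 1 (1.93). Of 44 mitosis genes 1, cyclin B2 (Ccnb2, 2.00, SE 0.65), was higher (median 0.35). Without overlap 9 were higher and 4 lower, against 22.5% and 13.3% over all measured genes. The Ccnb2 call ended without morula het 1 (1.38), blastocyst het 5 (1.91) or blastocyst het 8 (1.95).

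DNA methylation enzymes changed in both directions. Of 18 genes 4 were higher and 1 lower (median 0.19). Tdg, the glycosylase that removes oxidised methylcytosine, stood at 21.4, 3.64 and 0 and then at 276, 207, 275 and 215 (5.69, SE 1.299). Dnmt3b, a de novo methyltransferase, went from 16.2, 55.2 and 68.1 to 230.4, 229, 267 and 407 (2.77, SE 0.65), and Mbd2, a reader of methylated DNA, rose by the same amount (2.77). With Uhrf1 these made up the rises. Dnmt1, the maintenance enzyme, overlapped (46.8 to 55.0 against 42.7 to 70.8), and Dnmt3l was apart and higher (1.29, SE 0.39). Tet3, the oxidase of the zygote, had 53.2, 16.5 and 2.78 against 0.834 to 2.45 (−2.52, SE 1.13), a call that ended without morula het 1 (−1.61).

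Of 37 oocyte and maternal genes 11 were in both tables and 9 were measured, 1 was higher and 2 lower (median 0.18). Another 15, such as Zp2 and Npm2, were in the morula table alone and entered no comparison, and the highest het morula mean among them was 5.59 CPM. Padi6, of the oocyte lattices, fell from 8, 32.4 and 51.5 to 4.24, 0, 0.435 and 6.796 (−3.18, SE 1.05). Ooep, a partner in the subcortical maternal complex, had 4.39, 8.34 and 14.02 against 21.96, 49.6, 45.7 and 54.8 (2.196, SE 0.52), a call that ended without morula het 1 (1.82). Zbed3 was lower (−2.04, SE 0.54), a call that ended without morula het 1 or 5 or blastocyst het 5 or 8 (−1.78 to −1.90). Khdc3, of the same complex, was apart and higher (1.42), and Zp3 of the egg coat was apart and lower (−1.78) and called without morula het 7 (−2.03). Of 26 genes of the 2-cell stage 6 were in both tables and 7 in the morula table alone, 4 were measured and 2 were lower, Obox6 and the nuclear body gene Sp110 (181, 812 and 545 against 131, 17.4, 23.7 and 27.5; −3.58, SE 0.91).

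Of 40 imprinted genes, counting Xist, 16 were measured, 3 were higher and 2 lower (median 0.22). Mest, a paternally expressed gene, stood at 5.42, 0.168 and 0 and then at 39.8, 14.9, 20.4 and 27.6 (3.68, SE 0.91). Sfmbt2 (3.32, SE 0.84) and the amino acid transporter Slc38a4 (2.41, SE 0.20), both known for imprinted expression in the placenta, rose too. Igf2r, which clears the growth factor IGF2, fell from 244, 189.9 and 233 to between 35.4 and 58.3 (−2.28, SE 0.20), while Igf2 itself stayed under 10 CPM in every embryo. Xist, the RNA that silences an X chromosome, stood at 308, 357 and 321 in morulae and at 2.29, 1.44, 4.48 and 95.2 in blastocysts. The blastocyst at 95.2 was het 8, the one with 0 reads of both Y-linked genes. It lay above the other blastocysts and below every morula, and the part of sex in the Xist difference was not tested.

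Cohesin and CTCF-associated genes held 1 call among 21 measured of 28 (median −0.33, or −0.67 without both libraries that stand apart). Without overlap 4 were higher and 6 lower, against 22.5% and 13.3% over all measured genes. Stag2, a cohesin subunit on the X chromosome, fell from 289, 275 and 339 to 47.1, 30.5, 56.7 and 43.7 (−2.76, SE 0.20). Ctcf itself had 26.1, 35.1 and 54.6 in morulae and 78.9, 55.1, 67.7 and 68.5 in blastocysts (0.84, SE 0.32). The groups were apart by a narrow margin, 54.6 against 55.1, and the difference was under the size threshold.

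Stress, lysosome and p53 lists were mixed. Of 20 measured genes of the unfolded protein and integrated stress responses 1 was higher and 4 lower (median 0.28). Asns, asparagine synthetase, stood at 16.7, 0 and 7.73 and then at 34.8, 46.2, 96.5 and 198 (3.82, SE 1.37). The falls were Ddit4, an inhibitor of mTORC1 (−3.85, SE 0.62), Trib3 (−2.63, SE 0.72), the chaperone Dnajb9 (−2.50, SE 0.62) and Cth of cysteine synthesis (−2.35). The Trib3 call ended without morula het 5, when its higher group mean dropped under the minimum. Of 16 immediate early and heat shock genes 1 was higher and 2 lower (median 0.09). The AP-1 subunits went opposite ways, Jund from 4.84, 6.16 and 4.17 to 40.5, 77.6, 115 and 45.5 (3.43, SE 0.37) and Jun from 32.6, 40.1 and 74.6 to 2.02, 5.61, 18.6 and 7.68 (−2.62, SE 0.66), and the heat shock protein Hspa1b fell (−3.42, SE 0.44). Of 23 p53 targets and apoptosis genes 1 was higher, Casp9 (2.58, ended without morula het 5 at 1.57), and 1 lower, the cyclin kinase inhibitor Cdkn1a, from 90.4, 90.5 and 145 to 7.65, 18.4, 7.02 and 72.5 (−2.59, SE 0.78). Of 33 lysosome genes 3 were higher and 1 lower, with a median of 0.01 that became −0.11 under median-of-ratios scaling. Lamp1, the main membrane glycoprotein of lysosomes, went from 64.7, 114 and 146 to 1022, 1332, 1062 and 981 (3.40, SE 0.36). The protease Tpp1 (3.48, SE 0.92) and the calcium channel Mcoln1 (2.56, SE 0.49) were higher, and the cathepsin Ctsz was lower (−2.17, SE 0.37), a call that ended without morula het 5 (−1.93). Of 3 measured granulosa markers 1 was lower, Nr5a2 (−2.29, SE 0.39), which embryos express themselves. Granulosa markers summed to at most 0.0402% of reads, again highest in morula het 1.

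**Figure D4:**
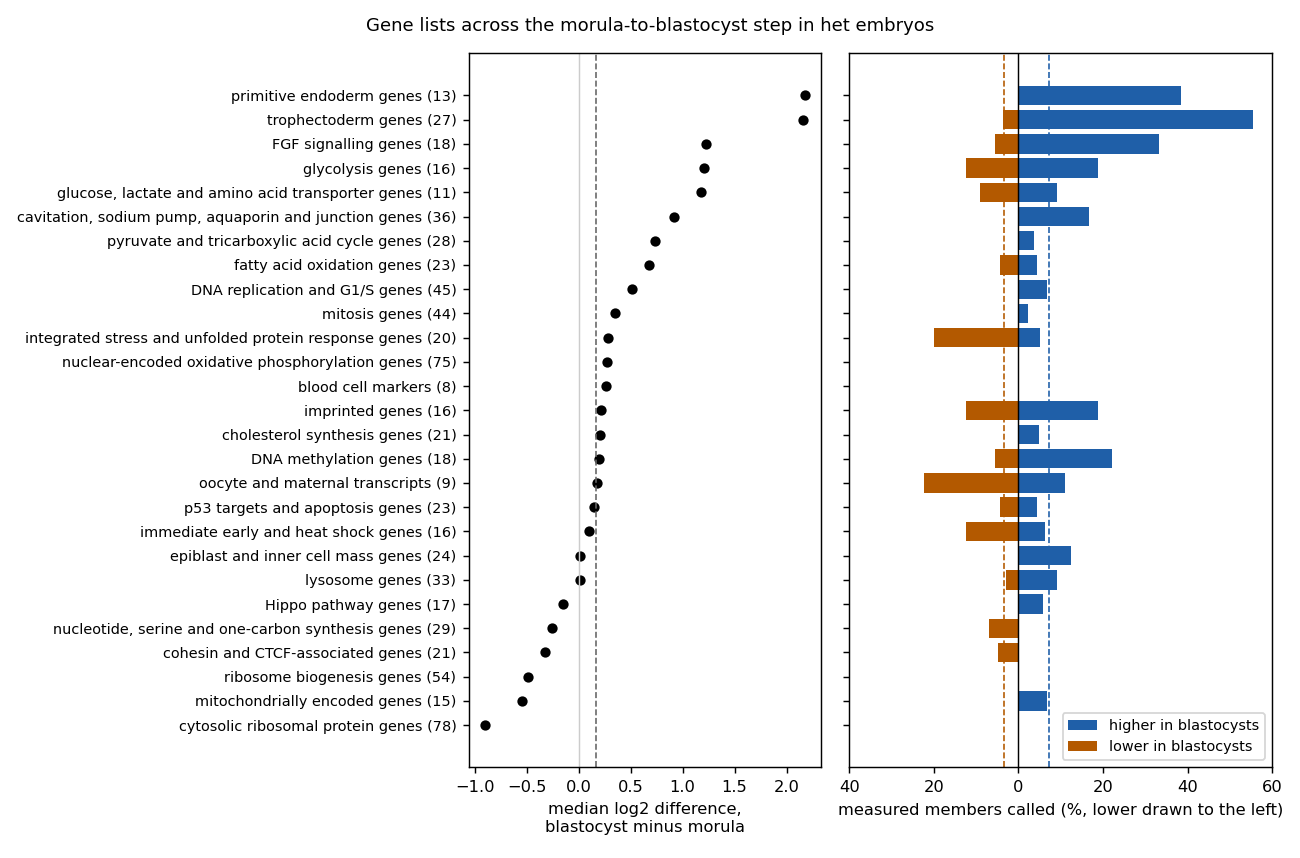
Gene lists with at least 8 measured members (number in brackets), ordered by the median log2 difference between het blastocysts and het morulae (left, dashed line at 0.17 for all measured genes) and with the percent of measured members called higher (blue) or lower (orange) on the right. Dashed lines on the right mark the shares over all measured genes, 7.30% and 3.33%. Trophectoderm (15 of 27 higher), primitive endoderm (5 of 13) and FGF signalling (6 of 18) lie to the right, and cytosolic ribosomal protein genes (median −0.90) at the bottom.

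The same step in embryos with little Ctcf gave a comparison in which the table and its batch cancel. Ctcf stood at a mean of 4.33 CPM in MZKO morulae and 3.62 CPM in MZ_KO blastocysts. The knockout effect against het was taken within each table and compared between tables with limma over 8572 genes. At an adjusted p under 0.05, 54 genes (0.630%) had a stage change that was higher without Ctcf and 84 genes (0.980%) one that was lower. The het embryos enter both this contrast and the stage differences above, so the values are set side by side only. MZKO embryos carry the prefix C50 and MZ_KO embryos C7. The del morulae, a second group with little Ctcf (0 to 5.81 CPM, mean 2.30, against 26.1 to 54.6 in het), share the prefix N2 with het morulae. They are not part of the contrast, though they enter its shared estimate of spread, and are given beside it. Del morula 6 had only 1635553 reads, against 12368954 to 13923394 in the other del morulae.

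Slc16a1 rose by 2.46 in het embryos and changed by −0.21 without Ctcf (difference −2.66, SE 0.49, limma adjusted p = 0.0044). It stood at 43.2 ± 4.45 CPM in het morulae, 123 ± 60.1 in MZKO morulae, 246 ± 61.6 in het blastocysts and 96.0 ± 12.9 in MZ_KO blastocysts (SD, n = 3, 6, 4 and 3), and del morulae lay between 45.3 and 114 CPM. MZKO and del morulae overlapped het morulae and were above them in mean, and MZ_KO blastocysts lay below every het blastocyst. For Gpi1 the stage change was 1.91 in het and 0.11 without Ctcf (−1.80, SE 0.41, limma adjusted p = 0.0201). Its MZKO morulae (88.7 to 169 CPM) overlapped het (37.7 to 146), del morulae lay at 46.6 to 72.1, and MZ_KO blastocysts at 124 to 142 were below het at 238 to 325. That call was lost with only the 4 groups of the contrast, or without morula het 5 or 7 or MZ_KO 2 or 6 (highest limma adjusted p = 0.0752). Rpa1, a subunit of the single-strand DNA-binding protein of replication, changed by 1.64 in het and by −1.02 without Ctcf (−2.66, SE 0.38, limma adjusted p = 3.81e-04). It lay at 25.5 to 39.5 CPM in del, 22.1 to 39.7 in het and 39.5 to 81.1 in MZKO morulae, and at 21.6 to 31.2 in MZ_KO against 89.04 to 123 in het blastocysts. Gata4 changed by 2.21 and −3.12 (−5.33, SE 0.93, limma adjusted p = 0.00292), and MZ_KO blastocysts held 0 to 2.54 CPM of it against 7.41 to 20.5 in MZKO and 4.21 to 18.6 in del morulae. For mt-Nd3 and Impact the MZKO and het groups stood apart in the morulae and overlapped in the blastocysts. For mt-Nd3 the stage change was 2.86 in het and −1.06 without Ctcf (−3.92, SE 0.51, limma adjusted p = 2.54e-04). Blastocysts overlapped (72.5 to 107 in het, 68.3 to 121 in MZ_KO), but MZKO morulae stood at 113 to 308 CPM against 9.68 to 13.1 in het and 6.74 to 29.6 in del, so that del morulae, also poor in Ctcf, overlapped het and not MZKO. The imprinted gene Impact stood at 63.3 to 153 CPM in MZKO, 32.5 to 45.3 in del and 5.62 to 19.4 in het morulae, and at 4.24 to 12.9 in het and MZ_KO blastocysts (−3.39, SE 0.63, limma adjusted p = 0.0047). The part of the title prefix in these differences was not tested.

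In the other direction, Sfn, an epithelial 14-3-3 protein, changed by −1.07 in het embryos and by 0.76 without Ctcf (1.83, SE 0.35, limma adjusted p = 0.0055). It stood at 629 to 1313 CPM in het, 632 to 818 in del and 142 to 369 in MZKO morulae, and between 357 and 604 in het and MZ_KO blastocysts, so that del again overlapped het and not MZKO. Dppa3 (1.57, SE 0.40, limma adjusted p = 0.0405) and the ribosomal protein gene Rpl7 (1.05, SE 0.26, limma adjusted p = 0.0346) passed in the full fit, but passed only 9 and 13 of the 21 alternatives, with the highest limma adjusted p at 0.159 and 0.125. The calls of Slc16a1, mt-Nd3, Rpa1, Gata4, Impact and Sfn held in all 21. By list, limma called 1 of 13 glycolysis, 1 of 10 transporter, 1 of 46 replication, 1 of 14 primitive endoderm, 1 of 16 Hippo, 1 of 15 mitochondrially encoded, 1 of 14 immediate early and 1 of 16 imprinted genes, all lower without Ctcf. It called 1 of 25 trophectoderm, 1 of 23 epiblast, 1 of 14 DNA methylation and 1 of 78 ribosomal protein genes, all higher. No list held more than 1 call. The counts over all genes moved with single embryos: without morula het 1 they were 434 higher and 272 lower, and without morula het 7 they were 14 and 39.

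**Figure D5:**
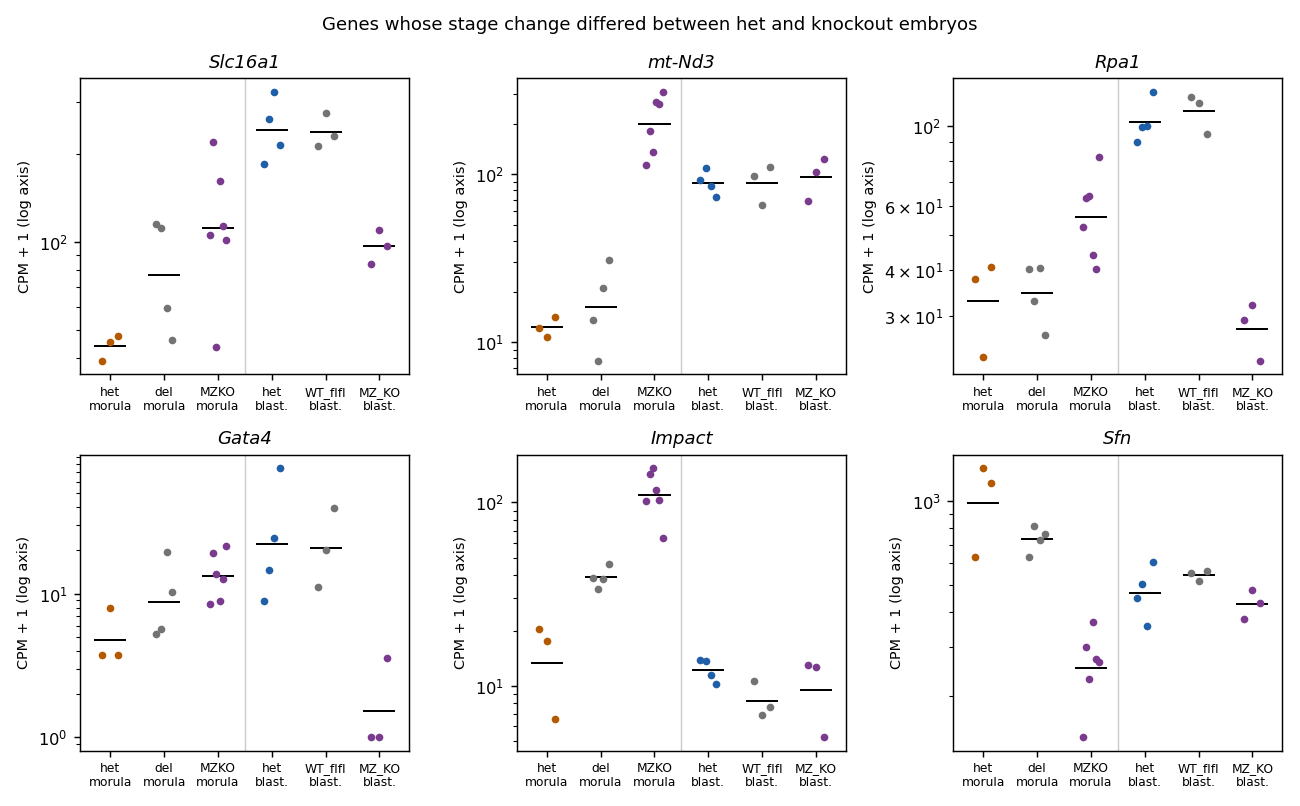
CPM + 1 (log axis) of 6 genes whose stage change differed between het and knockout embryos by limma, in het, del and MZKO morulae (n = 3, 4 and 6) and het, WT_flfl and MZ_KO blastocysts (n = 4, 3 and 3). Points are embryos and black bars the group mean on the log scale; Slc16a1 rises in het (38.2 to 46.7 against 184 to 325 CPM), and mt-Nd3 and Impact are highest in MZKO morulae.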

How the data were processed

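The authors deposited log2 values in 1 table per stage. These behaved as log2 counts per 1000000 of a scaled library size, with an offset of 0.5 reads. Undoing both gave whole reads for 100% of values within 0.01 reads, and CPM for log2(CPM + 1), a scale that understates changes of low genes. The submitters' processing notes list RSEM 1.3.1, Bowtie2 2.2.9, cutadapt 1.14, GRCm38 and mm10; their order, the scaling and use of strand in counting are not given in the sources used here, so antisense partners, pseudogenes and paralogs are uncertain. The design assumed linear values; the unit was log2.

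Names and positions came from the GENCODE M21 annotation (14325 of 14332 shared rows had a symbol), and promoters from RefSeq. Of 28 labelled samples 27 had a column; the repeat library of blastocyst het 3 was not analysed here, and 0 columns belonged to other samples. The labels do not tell which embryos had the same mother, so p-values measure only the spread between these embryos. Stage was compared by the size rule given above. Stage changes of het and knockout embryos were compared with limma 3.58.1 in R 4.3.3 (trend, 7 groups in 1 fit, Benjamini-Hochberg adjustment over 8572 genes that reached 10 CPM in 3 or more embryos of both tables). The 7 groups were het, del and MZKO morulae and het, WT_flfl, M_KO and MZ_KO blastocysts. Scripts were tested on simulated data. Other work used Python 3.11.15.

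The comparison, the members and the 31 gene lists were chosen with earlier results of these data known. Named were a fixed panel, the 12 largest rises and 12 largest falls among called protein-coding genes with a standard symbol (without chromosome Y, Xist and Tsix), up to 3 called members per list and direction, and up to 6 list genes per direction from the limma contrast. Other genes named, such as Pard3, Pard6b, Spry1, Mbd2 and Cth, were taken from list calls after their values were seen. A few list members are counted but not reported here by name. Alternatives were other pseudocounts, scalings, minimum levels and size thresholds, ranks, WT_flfl blastocysts and leaving out embryos. Leaving out both libraries that stand apart was chosen after seeing the data.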

Additional observations from a re-analysis of the deposited data

Results flagged for a closer look

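Each gene below had a stage change that differed between knockout and het embryos by limma, given as knockout minus het in log2: Slc16a1 −2.66, mt-Nd3 −3.92, Rpa1 −2.66, Gata4 −5.33, Impact −3.39, Gpi1 −1.80, Sfn 1.83, Dppa3 1.57 and Rpl7 1.05. Knockout morulae and blastocysts carry other title prefixes (C50 and C7) than het morulae and blastocysts (N2 and N89), and the part of prefix was not tested.

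A single het blastocyst stood far from the other 3 in 5 values. Fgf4 was lowest in het 5 at 16.2 CPM, Tcam1 was highest in het 8 at 3.59 CPM and Tdrd9 was highest in het 3 at 0.695 CPM. Tdrd9 had no reads in the other het blastocysts, so its mark rests on a value near the floor. The summed share of p53 targets and apoptosis genes was highest in het 8 at 0.179% of reads, and that of lysosome genes in het 5 at 1.62%. Chance alone marks about 1 in 20 groups in this way.

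The blastocyst table also lists 3 entries that name no mouse gene. LacZ, a bacterial reporter gene, stood at 23.3 to 36.1 CPM in the 4 het blastocysts and at 0 to 1.54 CPM in the 3 WT_flfl blastocysts. The drug resistance entries went the other way: Neomycine stood at 4.80 to 11.8 CPM in het and 19.8 to 32.9 CPM in WT_flfl blastocysts, and Puromycin at 4.66 to 9.51 and 16.3 to 28.9 CPM. What these entries mark is not given in the labels.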

How the results depend on the processing

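Of the named genes 87 were called, and 67 calls held whichever het embryo was left out. Of 36 genes not called, 9 were called when 1 embryo was left out. No named gene changed direction under an alternative in which it was called. Genes higher in het blastocysts than het morulae numbered 704, but 413 with a pseudocount of 5, 1606 at a difference of at least 1 and 240 at 3, and 694 to 1016 with single embryos left out. Genes lower numbered 321, but 161 with a pseudocount of 5, 200 at a minimum of 30 CPM, 880 and 94 at differences of at least 1 and 3, 787 by rank, and 301 to 493 with single embryos left out (493 without morula het 7). The stage change without Ctcf was higher for 54 genes and lower for 84, but 100 and 128 in plain reads per 1000000 and 21 and 44 with the 4 groups alone. With single embryos left out these counts ranged from 14 to 434 and from 39 to 272, and moved by over 1.5 times without morula het 1, 5 or 7, MZ_KO 2, 6 or 7, or blastocyst het 3, 5 or 6 (higher) and without morula het 1 or 7, MZKO 1, MZ_KO 6 or blastocyst het 3 or 6 (lower). List medians that moved most were, with WT_flfl in place of het blastocysts, −0.34 for Hippo genes, 0.83 for transporters, 0.48 for nuclear oxidative phosphorylation genes, −0.15 for mitochondrially encoded genes, 0.42 for DNA methylation genes and 0.10 for lysosome genes. Under median-of-ratios scaling they were 0.074 for DNA methylation genes, −0.45 for cohesin genes and −0.11 for lysosome genes, and without both libraries that stand apart −0.37 for epiblast genes, 0.96 for transporters and −0.67 for cohesin genes. The cause of these shifts was not tested. The median over all measured genes was 0.17, and 0.03 under median-of-ratios, 0.19 in plain reads per 1000000 and −0.02 under upper-quartile scaling. No paired analysis was possible because het morulae and het blastocysts share only the number 5, and within each table knockout and het embryos share 1 number.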

Other observations

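Some genes were listed in the table of 1 stage alone and so stayed outside the comparison. In the blastocyst table there were 1250 such genes, and 55 of them reached a mean of 10 CPM in het blastocysts. The morula table had 2413, and 50 did so in het morulae. Among the former were Dppa1, a trophectoderm gene (277 to 748.5 CPM, median 554.9), the desmosomal cadherin Dsc2 (36.5 to 120.0), the acyl-CoA synthetase Acsl6 (51.4 to 109.3), the scaffold gene Pdzk1 (40 to 103.7), the homeobox genes Cdx1 (18.3 to 33.9) and Msx2 (22.1 to 42.5), the AP-2 gene Tfap2a (9.38 to 17.2) and the ligands Fgf10 (13.4 to 19.02) and Wnt6 (8.34 to 38.1). Those of the morula table with the highest minimum included processed pseudogenes, among them Rps19-ps6 (36.3 to 128 CPM), and Ciita, the activator of MHC class II genes (16.9 to 37.9). These genes were chosen after their values were seen. Why a gene is listed in 1 table alone is not stated in the labels, and no fold is given.

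By type, 95.3% of the 704 higher genes and 81.6% of the 321 lower genes were protein-coding, against 94.5% of all measured genes. The lower genes held 17 pseudogenes and 42 genes of other types, and the higher genes 19 and 14.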
